A study of Mus musculus with 12 samples.

Results

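The 10 genes described here encode heat shock proteins and the factor that controls them: *Hspa1a*, *Hspa1b*, *Hspa8*, *Hsph1*, *Dnajb1*, *Hsp90aa1*, *Hsp90ab1*, *Hspb1*, *Hspe1* and *Hsf1*. They were chosen by gene symbol from the 48623 genes of the expression table, and each symbol matched a single Ensembl identifier. The choice was made with earlier results of these data known, in which *Hspa1b* already stood out, so the levels of *Hspa1b* are given as a description with no test. RNA-seq was performed on primary microglia from newborn C57BL/6J mice, grown from cortex and hippocampus in mixed glial culture and then separated by mild trypsinization. The 6 cultures were wild type (WT; T13, T33 and T43) or carried the *Trem2* R47H knock-in (KI; T15, T22 and T32), and each gave an untreated library and a library after 48 h of interleukin-4 (IL-4, at 20 ng/ml), a cytokine that drives the anti-inflammatory state. This made 4 groups of 3 libraries. By the study's account, the KI cultures came from homozygous animals and the WT cultures from their littermates, with 3 mice for each genotype. Pups of a knock-in litter were kept apart in culture and genotyped later. The knock-in also lowers *Trem2* RNA through altered splicing.

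Heat shock proteins are molecular chaperones that hold unfolded proteins and help them to fold. HSP70 proteins bind short exposed stretches, with J-domain proteins such as DNAJB1 delivering clients and HSP110 proteins such as HSPH1 exchanging nucleotide, and HSP90 then takes over many kinases and receptors. Small heat shock proteins such as HSPB1 hold unfolded proteins without ATP, and HSPE1 is the lid of the mitochondrial chaperonin. HSF1, the heat shock transcription factor, binds inverted repeats of a short unit, the heat shock element, in the promoters of the inducible members.

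The sequences upstream of the start are shown for the members in which the element is best known and for *Hspb1*, to which the genotype test below turns. All are from RefSeq on GRCm38.p6 and run 5′ to 3′ on the gene's strand, with capitals marking the letters of an element of 2 inverted units (GAANNTTC or TTCNNGAA, searched on both strands). For *Hspa1a* (chr17:34972157-34972306, minus strand), *Hspa1b* (chr17:34959239-34959388, minus strand) and *Hspb1* (chr5:135887769-135887918, plus strand) the 150 bases before the start are given.
Hspa1a: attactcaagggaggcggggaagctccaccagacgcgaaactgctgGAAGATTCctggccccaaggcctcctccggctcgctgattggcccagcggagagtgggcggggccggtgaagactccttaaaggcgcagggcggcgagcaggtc
Hspa1b: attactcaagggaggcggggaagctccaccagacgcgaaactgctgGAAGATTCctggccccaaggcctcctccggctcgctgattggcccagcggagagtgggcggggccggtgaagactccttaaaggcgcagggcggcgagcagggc
Hspb1: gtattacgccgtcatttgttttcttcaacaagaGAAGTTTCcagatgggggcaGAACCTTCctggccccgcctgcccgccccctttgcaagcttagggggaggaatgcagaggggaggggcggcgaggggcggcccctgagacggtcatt
The *Hspa1a* and *Hspa1b* stretches shared 149 of these 150 bases, and 247 of the 250 bases before the start. For *Hsph1* (chr5:149636351-149636380, minus strand) and *Hspe1* (chr1:55088053-55088082, plus strand), 30 bases around the element are given. The *Hsph1* element lies 33 to 26 bases before the nearer RefSeq start and 54 to 47 before the farther. It lies inside the GENCODE span of the gene given below, which begins further upstream. In *Hspe1* overlapping matches joined into 18 capitals.
Hsph1: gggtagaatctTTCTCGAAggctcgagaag
Hspe1: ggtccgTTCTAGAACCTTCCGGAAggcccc
Of the 10 members, 6 had a promoter sequence, running from 250 bases before to 50 after the start, and 5 of these 6 held the 2-unit element, compared with 17.0% of 27025 genes with a window (15.1% of 32851 windows). An element of 3 units (GAANNTTCNNGAA or TTCNNGAANNTTC, which contains the shorter one) was found in *Hsph1*, after the start, and in *Hspe1*, compared with 0.662% of genes. The windows of *Dnajb1* held neither. *Hspa8*, *Hsp90aa1*, *Hsp90ab1* and *Hsf1* had no entry.

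*Trem2*, the targeted gene, was lower in every KI library (325 to 770 TPM) than in every WT library (1190 to 1886 TPM), where TPM is a level scaled to transcript length and library total. Each of 18 microglial markers was detected above 1 TPM in at least 1 library, and their summed level was lower in KI than in WT, at 15428 to 31402 compared with 35280 to 36406 TPM untreated, and at 26313 to 35967 compared with 40905 to 49144 TPM after IL-4. Other cell types were also detected. The summed level of 12 astrocyte markers was 5022 and 3847 TPM in the untreated and IL-4 libraries of KI culture T15, compared with 174 to 729 TPM in the other 10 libraries. The contractile genes *Acta2*, *Tagln*, *Myl9* and *Cnn1*, which mark smooth muscle and other mural cells, were higher in KI by the test across all genes described below. All 17 microglial markers that entered this test were lower in KI on average (median -0.65 on the log2 scale) and 5 passed, of which *Csf1r*, *Itgam* and *Fcrls* did not pass with culture as a replicate block (limma adjusted p = 0.0648, 0.0766 and 0.0778). In the 6 fits that each left out 1 culture, *Aif1* and *C1qb* passed in 2, *Csf1r* in 1, and *Itgam* and *Fcrls* in 0. Oligodendrocyte lineage markers summed to 146 to 547 TPM in KI and 69.5 to 137 TPM in WT without IL-4, and to 143 to 377 and 81.3 to 151 TPM after it, and of 7 tested 5 were higher and 2 lower in KI on average (median 0.27), with 1 called, *Olig1* (2.69 higher; limma adjusted p = 0.0438, and 0.0634 with the replicate block). The 3 neuronal markers tested were higher in KI on average (median 1.41, none called by limma), at sums of 6.77 to 63.6 TPM. The 2 endothelial markers tested were lower in KI on average (median -0.22, none called by limma). Of the endothelial list, *Cldn5* and *Tek* were listed at 0 in every library. Since these were bulk samples, fewer cells of a type and less RNA per cell cannot be told apart for any gene below.

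At the level of RNA, the constitutive cytosolic chaperones led. *Hspa8*, the constitutive HSP70, had the highest mean, 475 ± 67.5 TPM (SD, n = 12 libraries), above *Hsp90ab1*, the constitutive HSP90, at 372 ± 67.7 TPM in all 12 libraries. *Hsp90aa1*, the inducible HSP90, followed at 234 ± 91.1 TPM, and *Hspe1* at 197 ± 28.9 TPM. *Hsp90aa1* was the higher of this pair in 8 of 12 libraries only, so their order was within the spread. A second tier held *Hspb1* at 35.5 ± 26.9, *Dnajb1* at 30.1 ± 6.45, *Hsf1* at 26.4 ± 7.85 and *Hsph1* at 22.8 ± 12.1 TPM, neighbours that exchanged places in 3 to 6 of the 12 libraries. *Hspa1a* and *Hspa1b*, the stress-inducible HSP70 genes, were lowest, with medians of 1.80 and 1.22 TPM and *Hspa1a* above *Hspa1b* in 6 libraries and below it in 5, both being listed at 0 in the other. The SD was 14.2% of the mean for *Hspa8* and 14.7% for *Hspe1*, compared with 75.7% for *Hspb1* and 53.1% for *Hsph1*. The plot of the members by library shows these levels with the libraries of a culture joined.

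**Figure D1:**
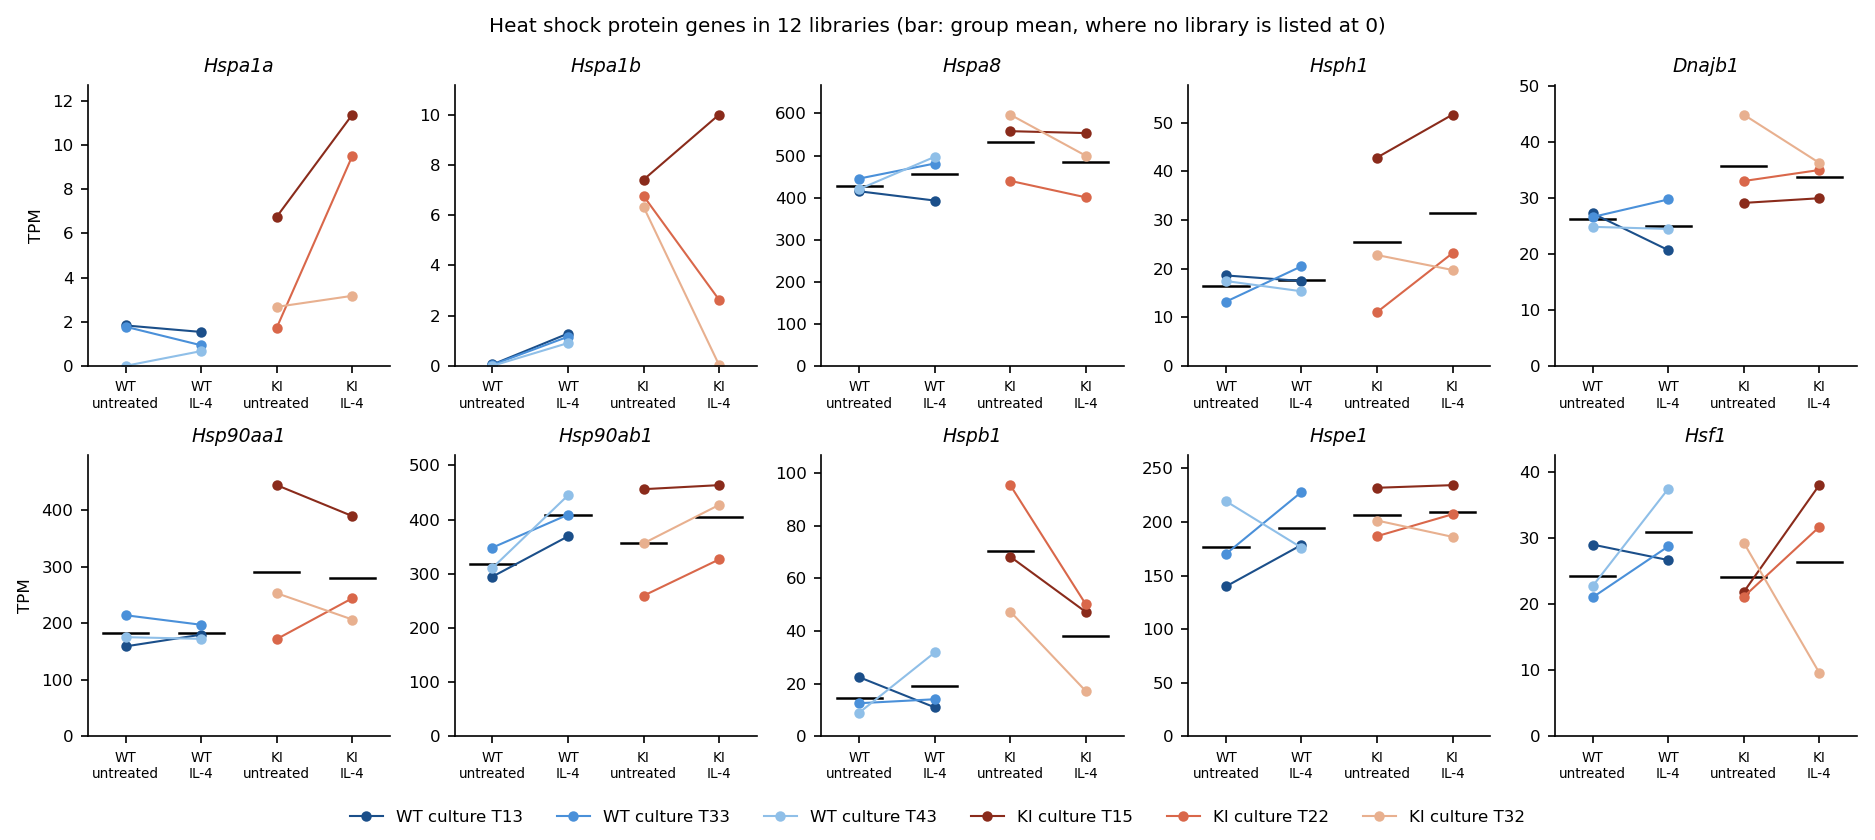
TPM of the 10 members (vertical axes, linear from 0) in the 4 groups, where each point is a library, lines join the untreated and IL-4 libraries of a culture, and black bars are group means, left out for *Hspa1a* and *Hspa1b*, which have libraries listed at 0. The untreated KI cultures sit between 47.4 and 95.4 TPM for *Hspb1*, all above the untreated WT cultures, whereas for *Hspa8* and *Hsp90ab1* the groups overlap.

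*Hspa1a* and *Hspa1b* lie 9951 bases apart on chromosome 17 (GRCm38, chr17:34969190-34972156 and chr17:34956436-34959238), 13.4 Mb from *Trem2*. Their coding sequences were 99.43% identical, with 1 difference in 642 aligned residues of protein, and 63.8% of the 31-base words of *Hspa1a* transcripts also occurred in *Hspa1b*. How reads were divided between the pair is therefore uncertain, and the sum of both is given as well.

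For *Hspa1b*, levels in the untreated WT cultures were 0.0533 TPM (T13), 0.0389 TPM (T33) and listed at 0 (T43). The untreated KI cultures gave 7.41, 6.77 and 6.33 TPM (T15, T22 and T32). After IL-4, the WT cultures reached 1.28, 1.16 and 0.907 TPM, and the KI cultures spread from 10.0 (T15) through 2.63 (T22) to 0.0361 TPM (T32). Thus the level was above WT in every untreated KI culture, but after IL-4 the groups overlapped, with T32 below all 3 WT cultures.

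*Hspa1a* was at 1.83, 1.77 and 0 TPM in WT and 6.76, 1.73 and 2.67 TPM in KI without IL-4, so these groups overlapped. After IL-4 it was at 1.53, 0.929 and 0.668 TPM in WT and at 11.4, 9.51 and 3.17 TPM in KI, and the KI cultures lay above the WT cultures without overlap. On the log2(TPM + 1) scale, on which all differences below are given and which understates changes of low genes, *Hspa1a* was 2.02 higher in KI after IL-4 and 1.104 higher in untreated KI. The gene cleared the filter on low levels used below (a mean above 1.5 on this scale) through its KI libraries alone, with means of 1.00 in WT and 2.56 in KI, so its genotype difference is given as a description with no test.

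In the summed level of the pair the KI cultures lay above the WT cultures without overlap in both conditions. Of all genes tested below, 13.6% did so untreated and 12.7% after IL-4. Since *Hspa1a* and *Hspa1b* are each given as a description, their sum is also given with no test. In untreated cultures the sum was 1.88, 1.81 and 0 TPM for WT and 14.2, 8.497 and 9.005 TPM for KI. After IL-4 it was 2.82, 2.09 and 1.58 TPM for WT and 21.4, 12.1 and 3.21 TPM for KI. The share of the sum assigned to *Hspa1b* ranged from 1.13% (KI culture T32 with IL-4) to 79.6% (KI culture T22 untreated). *Gm20481*, a gene annotated on the opposite strand within *Hspa1a*, was at up to 6.71 TPM (KI culture T15 with IL-4). It held 17.4% of the *Hspa1a* words and 13.5% of the *Hspa1b* words. The library kit does not mark strand, so reads from this shared sequence cannot be told apart.

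**Figure D2:**
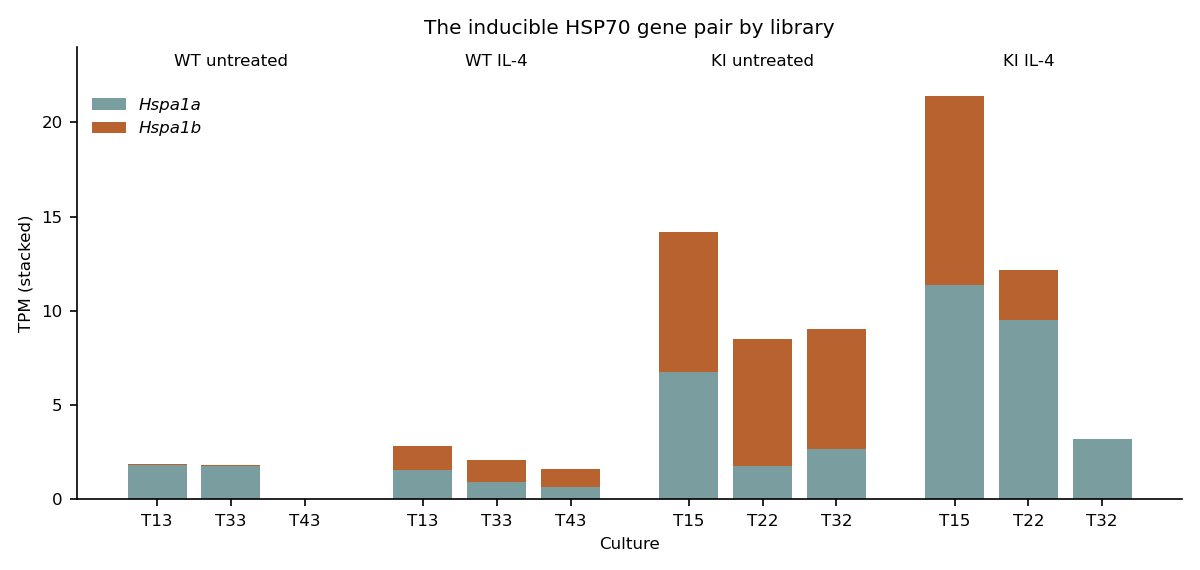
Stacked TPM of *Hspa1a* (grey-green) and *Hspa1b* (orange) in each of the 12 libraries, named by culture and ordered by group. The summed level of the untreated KI libraries is 8.497 to 14.2 TPM, above the 0 to 1.88 TPM of untreated WT, and the split between the genes varies from library to library.

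The other members of the HSP70 machinery showed smaller differences. *Hspa8* (chr9:40800984-40810087) was at 415, 445 and 420 TPM in WT and 558, 440 and 597 TPM in KI without IL-4. The KI culture T22 lay within the WT range, and the average genotype difference was 0.19 (SE 0.12; limma adjusted p = 0.565). *Gm26825*, a non-coding gene sharing 38.2% of the *Hspa8* sequence words, was listed at 439 to 650 TPM, so the *Hspa8* level is also uncertain.

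*Hsph1* (chr5:149614287-149636376), the HSP110 exchange factor, gave 18.6, 13.2 and 17.4 TPM in the WT cultures without IL-4. The untreated KI cultures gave 42.8, 11.03 and 22.8 TPM, and T22 lay below every WT culture. After IL-4, *Hsph1* was at 17.4, 20.5 and 15.3 TPM in WT and at 51.6, 23.2 and 19.7 TPM in KI. Both high values came from T15, the culture with the high astrocyte markers. The genotype difference was 0.55 (SE 0.31; limma adjusted p = 0.596), and without T15 the untreated difference was -0.03. The part of astrocyte RNA in the T15 values was not tested.

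*Dnajb1* (chr8:83608193-83612653) was at 27.2, 26.6 and 24.8 TPM in WT and 29.1, 32.98 and 44.8 TPM in KI without IL-4, a small difference without overlap. After IL-4 it was at 20.7, 29.7 and 24.4 TPM in WT and at 29.9, 34.9 and 36.2 TPM in KI, again without overlap. T15 gave the lowest KI value in both conditions. The average difference was 0.42 (SE 0.17; limma adjusted p = 0.380), which did not pass.

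Among the HSP90 genes, *Hsp90aa1* (chr12:110690605-110702728) was at 159, 214 and 176 TPM in WT and 445, 172 and 253 TPM in KI without IL-4. After IL-4 it was at 180, 197 and 173 TPM in WT and at 390, 244 and 207 TPM in KI. The KI cultures were all above WT after IL-4, but not when untreated, and T15 was the highest in both. The average difference was 0.56 (SE 0.21; limma adjusted p = 0.328), and 0.25 without T15. *Hsp90ab1* (chr17:45567775-45573271), whose protein was 86.0% identical to that of *Hsp90aa1*, was at 295, 348 and 311 TPM in WT and 456, 259 and 356 TPM in KI without IL-4. The KI cultures spanned the WT range on both sides. Its average genotype difference was 0.06 (SE 0.14, 95% interval -0.25 to 0.36; limma adjusted p = 0.937) and was -0.06 under median-ratio scaling, so no direction is given.

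*Hspb1* (HSP25, the mouse form of HSP27; chr5:135887919-135889563) was the member whose genotype difference passed the test. In untreated cultures it was at 22.5, 12.6 and 8.98 TPM in WT and at 68.2, 95.4 and 47.4 TPM in KI, 14.7 ± 6.98 compared with 70.3 ± 24.1 TPM (SD, n = 3). Every untreated KI culture was above the highest WT culture. After IL-4, WT cultures were at 10.99, 14.1 and 31.8 TPM and KI cultures at 47.2, 50.1 and 17.2 TPM, so the groups overlapped through WT culture T43 and KI culture T32. The average difference over both conditions was 1.60 (SE 0.34; limma F-test of genotype with its interaction, adjusted p = 0.0456), a 3.03-fold higher level of TPM + 1. In untreated cultures alone the difference was 2.22 (SE 0.48; limma adjusted p = 0.0451), and after IL-4 it was 0.97 (SE 0.48; limma adjusted p = 0.516). The change of the genotype difference with IL-4 was -1.25 (SE 0.68; limma adjusted p = 1.00), so a smaller difference after IL-4 was not shown.

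The *Hspb1* call was near its limit. When culture entered as a replicate block, the adjusted p by limma was 0.0785 for genotype and 0.0453 in untreated cultures. Leaving out 1 culture ended the genotype call for T15 (0.148), T22 (0.106), T33 (0.237) and T43 (0.156), and the untreated call for T15 (0.106), T22 (0.0775), T32 (0.0574), T33 (0.190) and T43 (0.169), all limma adjusted p-values, while the differences stayed between 1.34 and 2.56. *Hsp25-ps1*, a processed pseudogene that shares 52.3% of the *Hspb1* sequence words, was listed at 0.0358 to 17.3 TPM, with the highest value in untreated KI culture T22. When both were added, a check chosen after the values were seen, the differences were 1.505 (limma adjusted p = 0.0637) for genotype and 2.03 (limma adjusted p = 0.0641) in untreated cultures.

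Contractile genes were also higher in KI. The sum of *Acta2*, *Tagln*, *Myl9* and *Cnn1* was, without IL-4, 177 to 427 TPM in WT and 1324 to 1598 TPM in KI and, with IL-4, 267 to 472 TPM in WT and 836 to 1478 TPM in KI. All 4 were higher in KI (differences of 1.93 to 2.11; limma adjusted p = 0.00296 for *Acta2* and 0.0305 for *Cnn1*, the latter 0.0644 with the replicate block). Leaving out 1 culture ended some of these calls: that of *Cnn1* held in 1 of 6 fits without a culture, those of *Tagln* and *Myl9* were lost without T33 (limma adjusted p = 0.0813 and 0.0655) and without T43 (0.0571 and 0.0606), and that of *Acta2* was lost without T33 (0.0553). Over all 16 alternative settings *Acta2* passed in 14, *Tagln* and *Myl9* in 12 and *Cnn1* in 8. Over all 14 mural and fibroblast markers the summed level without IL-4 was 187 to 454 TPM for WT and 1378 to 1631 TPM for KI, 9 of 14 were tested, 8 of these were higher on average and 4 passed, and *Rgs5*, a pericyte marker, stayed below 1 TPM in every library. In untreated WT cultures the contractile sum was 427, 203 and 177 TPM (T13, T33 and T43) and the astrocyte sum 729, 208 and 174 TPM. Both followed the order of *Hspb1*. With IL-4 the WT contractile sum was 332, 267 and 472 TPM, with T43 the highest as for *Hspb1* but T13 and T33 exchanged. The WT astrocyte sum was then 649, 190 and 188 TPM, the reverse of the *Hspb1* order. Within the KI cultures the order of the contractile and astrocyte sums was not always that of *Hspb1*. Without IL-4 the contractile sum was 1356, 1324 and 1598 TPM and the astrocyte sum 5022, 242 and 630 TPM (T15, T22 and T32), so that T22, with the highest *Hspb1* level, was the lowest for both, and T32, with the lowest *Hspb1* level, had the highest contractile sum. After IL-4 the contractile sum was 877, 1478 and 836 TPM, the same order as *Hspb1*, and the astrocyte sum 3847, 651 and 659 TPM. The part of mural cells, astrocytes and oligodendrocyte lineage cells in the *Hspb1* difference was not tested.

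**Figure D3:**
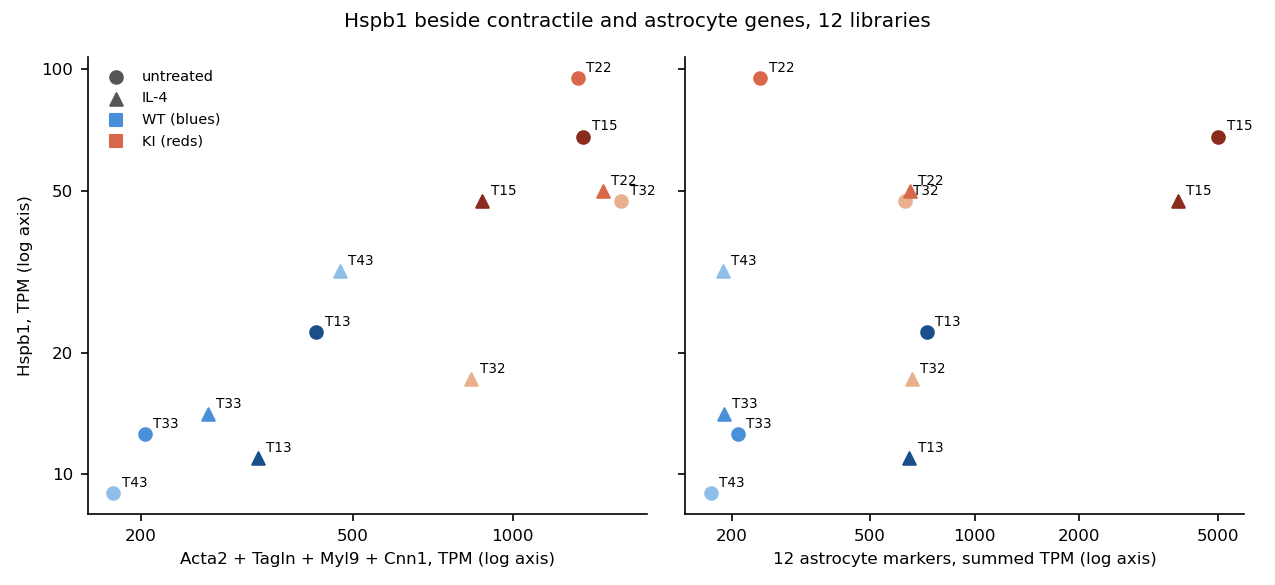
*Hspb1* TPM (vertical, log axis) against the summed TPM of 4 contractile genes (left, log axis) and of 12 astrocyte markers (right, log axis) in 12 libraries; blue points are WT, red points KI, circles untreated and triangles IL-4. The KI libraries have 836 to 1598 TPM of the contractile genes and the WT libraries 177 to 472 TPM, while the astrocyte sum is high in both T15 libraries only.

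*Hspe1* (chr1:55088132-55091307) varied little. It was at 140, 170 and 219 TPM in WT and 232, 187 and 201 TPM in KI without IL-4, with an average difference of 0.18 (SE 0.13, 95% interval -0.11 to 0.46; limma adjusted p = 0.718). *Hsf1* (chr15:76477422-76501913), the regulator, was at 29.0, 21.0 and 22.7 TPM in WT and 21.8, 21.1 and 29.3 TPM in KI without IL-4, groups with nearly the same range. After IL-4 the KI cultures diverged, with 38.0 (T15), 31.7 (T22) and 9.62 TPM (T32), the last being the lowest of the 12 libraries, whereas WT cultures were at 26.7, 28.7 and 37.4 TPM. The average genotype difference was -0.21 (SE 0.28; limma adjusted p = 0.855), and it was 0.0095 without T32.

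Over the family, 9 of 10 members passed the filter on low levels and entered the test of 11204 genes; *Hspa1b* did not. The genotypes are compared here over the 8 members other than *Hspa1a* and *Hspa1b*, each of which had a mean above 1.5 in WT and in KI. For genotype, 1 of the 8 was called, *Hspb1*, compared with 1.65% of all genes tested, and no other was under an unadjusted p of 0.05, compared with 16.1% of genes. In untreated cultures it was again *Hspb1* alone, compared with 0.91% of genes called and 16.8% under an unadjusted p of 0.05. After IL-4, limma called none of the 8 (background 0.0179%) and none was under an unadjusted p of 0.05 (10.3% of genes). For the interaction it called none of the 9 tested (background 0%), with none under an unadjusted p of 0.05 (3.19% of genes). KI cultures were above WT without overlap for 2 of the 8 when untreated (*Hspb1* and *Dnajb1*; background 13.6%) and for 2 after IL-4 (*Hsp90aa1* and *Dnajb1*; background 12.7%). The median genotype difference of the 8 was 0.31, with 7 above 0, compared with a median of 0.13 for all genes tested. Under quantile normalization these medians were 0.20 and -0.08, and under median-ratio scaling 0.19 and 0.02, with 6 of the 8 above 0 under the latter.

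**Figure D4:**
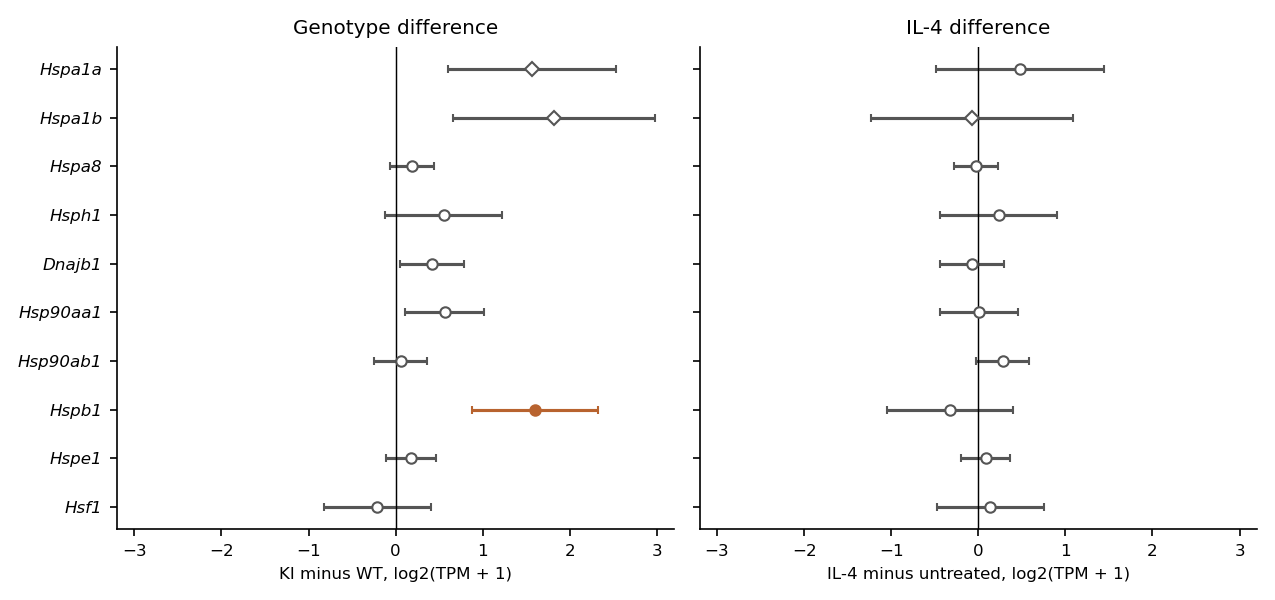
Average differences on the log2(TPM + 1) scale for genotype (left, KI minus WT) and IL-4 (right, IL-4 minus untreated) with 95% intervals from limma; the filled point passed the adjusted threshold and diamonds are descriptions, *Hspa1b* from the fit without the filter and, for genotype, *Hspa1a*. *Hspb1* is at 1.60 for genotype, and no IL-4 difference passed.

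None of the 9 members tested was called for IL-4 (0 by the limma F-test of IL-4 with its interaction compared with 0.893% of all genes, and 0 under an unadjusted p of 0.05, compared with 7.27%). *Hsp90ab1* was the only member with a higher level in all 6 cultures, a direction found in 5.73% of genes. Its levels after IL-4 were 369, 409 and 445 TPM in WT and 463, 326 and 427 TPM in KI, and the difference was 0.28 (SE 0.14, 95% interval -0.02 to 0.58; limma adjusted p = 0.890). *Hspb1* was lower after IL-4 in the 3 KI cultures, by 0.52, 0.91 and 1.41 on the log2(TPM + 1) scale, and in WT culture T13, and was higher in T33 and T43, with an average of -0.32 (SE 0.34; limma adjusted p = 0.886). *Hspa8* and *Hsp90aa1* differed by -0.02 (95% interval -0.27 to 0.23) and 0.01 (95% interval -0.44 to 0.46).

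The wider chaperone network was examined with lists of 117 genes, which include the members and which were drawn up with earlier results of these data known. Of 106 genes tested, 3 (2.83%) passed for genotype, compared with the 1.65% of all genes tested, and all 3 were higher in KI: *Hspb1*, *Cryab* and *Serpinh1*. Under quantile normalization *Cryab* alone of these was called. *Cryab*, encoding the small heat shock protein alphaB-crystallin, was at 115, 44.4 and 66.2 TPM in WT and 573, 245 and 305 TPM in KI without IL-4. After IL-4 it was at 112, 78.8 and 134 TPM in WT and at 299, 222 and 175 TPM in KI. The KI cultures were above WT in both conditions, and the difference was 1.70 (SE 0.25; limma adjusted p = 0.00998, and 0.0145 with culture as a replicate block). Without T33 and without T43 its adjusted p by limma was 0.102 and 0.0766. Over all 16 alternative settings *Cryab* passed in 12, with a highest limma adjusted p of 0.168. *Serpinh1* (HSP47), the collagen chaperone of the endoplasmic reticulum, was at 56.4, 22.4 and 14.1 TPM in WT and 155, 93.7 and 174 TPM in KI without IL-4. With IL-4 the groups overlapped, as *Serpinh1* was at 41.6, 37.6 and 69.3 TPM in WT and at 167, 111 and 48.2 TPM in KI. Its difference was 1.66 (SE 0.35; limma adjusted p = 0.0417), with an adjusted p of 0.0819 with the replicate block, and only leaving out T13 kept the call among the 6 cultures. Over all 16 alternative settings *Serpinh1* passed in 6, with a highest limma adjusted p of 0.318.

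The counts of differences above 0 given next for each list compare with 63.1% of all genes tested (42.5% under quantile normalization). The small heat shock proteins had the highest median of the lists, 1.70, with 5 of 5 tested above 0 and 2 called. *Hspb8*, with the largest difference of the list, was 2.11 higher in KI (SE 0.66; limma adjusted p = 0.215). Its untreated levels were 92.9, 11.1 and 18.5 TPM in WT and 382, 39.2 and 93.7 TPM in KI, with T15 far above the others. *Hspb6*, another member of this list, was at 64.3, 21.4 and 8.70 TPM in WT and 307, 17.5 and 68.2 TPM in KI without IL-4, with a difference of 1.72 (SE 0.72; limma adjusted p = 0.404). For both genes T15 was the highest of all cultures and T13 the highest of the WT cultures, with and without IL-4, as was also the case for the astrocyte sum. Astrocyte markers were higher in KI on average for 11 of 11 tested (median 2.01, none called by limma), of which *Slc1a2* and *Fgfr3* passed the filter through KI alone (9 of 9 and a median of 2.07 without them), and mural and fibroblast markers for 8 of 9 (median 1.44, 4 called). The part of these cell types in the small heat shock protein levels was not tested. In the HSP70 family, leaving out *Hspa1a*, which passed the filter through KI alone and had the largest difference, 10 of 10 were above 0 (9 under quantile normalization), with a median of 0.27 and none called by limma. J-domain co-chaperones had 19 of 24 above 0, a median of 0.32 and none called. The largest was *Dnajb2*, at 12.7, 12.7 and 3.91 TPM in WT and 44.7, 31.4 and 21.7 TPM in KI without IL-4, with a difference of 1.498 (SE 0.32; limma adjusted p = 0.0594).

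The remaining lists are given by their counts and medians. Co-chaperones and exchange factors had 20 of 23 above 0 and a median of 0.23, led by *Hspa4l*, an HSP110 family gene, at 0.86 (SE 0.26; limma adjusted p = 0.103). The HSP90 family had a median of 0.40 over 4 genes, and the chaperonins and prefoldin 0.23 over 16, with *Tcp1* the largest at 0.47 (SE 0.14; limma adjusted p = 0.191). Endoplasmic reticulum chaperones had a median of 0.26 over 23 genes, with *Dnajb9* the largest at 0.82 (SE 0.25; limma adjusted p = 0.202). Of the heat shock factors and their binding protein, *Hsf1*, *Hsf2* and *Hsbp1* were tested, with a median of -0.21, and *Hsf2* differed most, at -0.68 (SE 0.41; limma adjusted p = 0.576). None of these lists had a called gene. Under quantile normalization the medians were lower, at 0.14 for the HSP70 family without *Hspa1a*, 0.15 for the J-domain co-chaperones (17 of 24 above 0), 0.0894 for the co-chaperones and exchange factors (17 of 23), 0.31 for the HSP90 family, 0.11 for the chaperonins and prefoldin (11 of 16), 0.16 for the endoplasmic reticulum chaperones (16 of 23) and -0.40 for the heat shock factor list. The cytosolic heat shock response list without *Hspa1a* had a median of 0.32 over 27 genes, with 24 above 0 and the same 3 called (median 0.18 and 1 called under quantile normalization). The median of all 106 was 0.26, with 89 (84%) above 0, and 0.12 under quantile normalization, with 77 (72.6%) above 0; without *Hspa1a*, 88 of 105 and 76 of 105 were above 0.

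Immediate early genes, which many stimuli and cell handling induce, were examined beside the chaperones. Of 19 tested, *Ier3*, a stress-responsive gene, was called for genotype, at 1.45 (SE 0.26; limma adjusted p = 0.0298, and 0.0513 with the replicate block), and without *Fosl1* 11 of the other 18 were above 0, close to the share of all genes, with a median of 0.25 (-0.00821 under quantile normalization). Without T22, T32, T33 or T43 the adjusted p of *Ier3* by limma was 0.0588, 0.0735, 0.189 and 0.0871. Over all 16 alternative settings *Ier3* passed in 9, with a highest limma adjusted p of 0.221. *Fosl1*, a FOS-family factor, had the largest difference, 2.03, and like *Hspa1a* it passed the filter through KI alone (means of 1.46 in WT and 3.49 in KI), so it is given with no test.

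**Figure D5:**
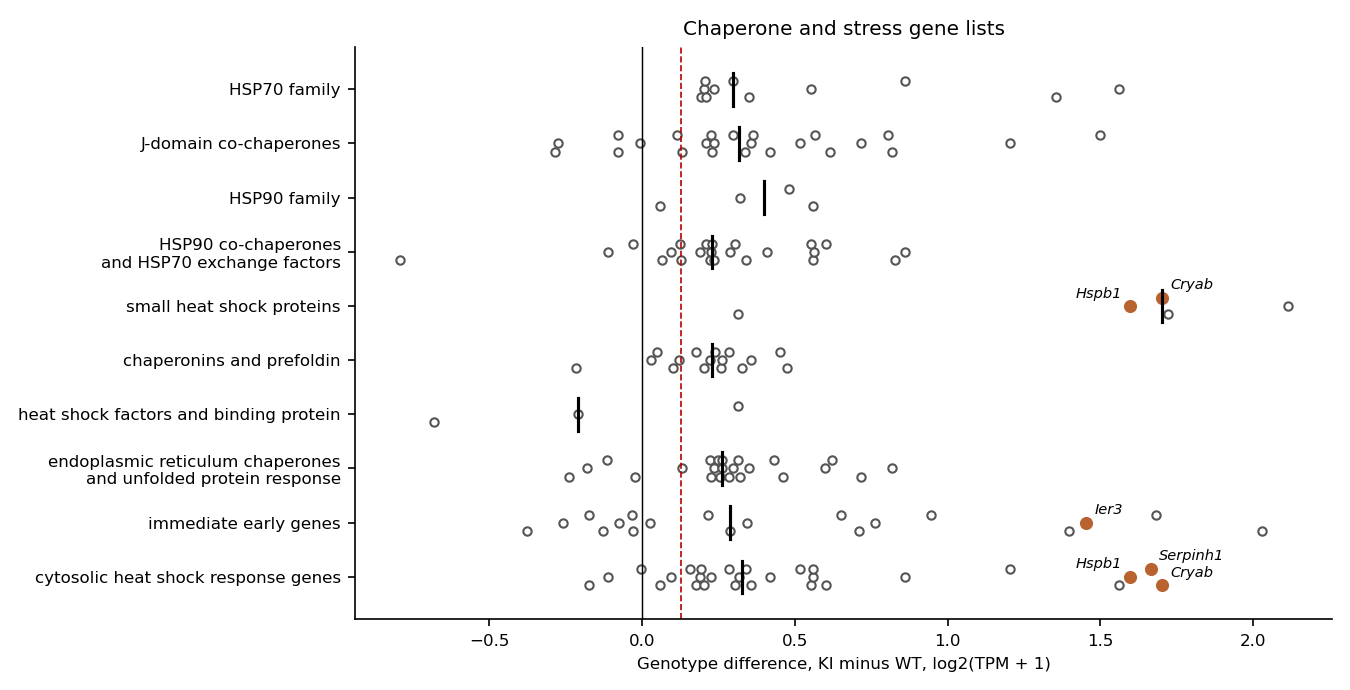
Genotype differences (horizontal, KI minus WT on the log2(TPM + 1) scale) of each tested gene in 10 lists, some genes standing in more than 1; black bars are list medians, filled points passed the adjusted threshold and the dashed line is the median of all genes tested, 0.13. The small heat shock proteins have the highest median, 1.70.

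For IL-4, limma called no gene of these lists, and 67 of 106 differences (63.2%) were above 0, compared with 55.8% of all genes (median 0.09, compared with 0.04). Under quantile normalization 59 of 106 (55.7%) were above 0, compared with 49% of all genes. *Hmox1*, heme oxygenase 1, was the nearest to the threshold, with untreated levels of 1935 to 2176 TPM in WT and 1753 to 1871 TPM in KI and levels after IL-4 of 1070 to 1352 TPM and 1094 to 1615 TPM. It was lower after IL-4 by 0.55 on average (SE 0.12; limma adjusted p = 0.0865), and it was called under quantile normalization (0.0180), with culture as a replicate block (0.0125), by the 1-coefficient test (0.0342) and without T15 (0.0379), all limma adjusted p-values. With the replicate block *Myc*, an immediate early gene, was called as well, higher after IL-4 by 1.101 (limma adjusted p = 0.0289). *Pdia4*, a protein disulfide isomerase, led the endoplasmic reticulum list, whose median was 0.22, at 0.64 (SE 0.31; limma adjusted p = 0.872). In the other lists the largest IL-4 differences were those of *Hspa13* (0.62), *Hspa4l* (0.52), *Hsp90b1* (0.35), *Cct5* (0.25), *Hspb1* (-0.32), *Hsf2* (-0.36), *Dnajb5* (-0.55) and *Nr4a1* (-1.14), none of which passed.

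The members' own patterns were compared over the 12 libraries, which come from 6 cultures and share genotype, culture and cell composition, so the coefficients are descriptions. *Hsph1* and *Hsp90aa1* were most alike (Pearson r = 0.89), followed by *Hspa1b* and *Hspb1* (0.83) and by *Hspa1a* and *Hsp90aa1* (0.78). *Hspa1a* and *Hspa1b* gave 0.62. *Hsf1* was not closely alike to any member, with coefficients from -0.21 (*Dnajb1*) to 0.36 (*Hspa1b*). Among all genes tested, the nearest to *Hspb1* were *Mrpl50* (0.94) and *Cavin1* (0.94), to *Hspa1a* *Mpdz* (0.97) and *Enpp5* (0.95), and to *Hspa1b* *Ywhaz* (0.95) and *Acad11* (0.94). The nearest to *Hsph1* were *Atxn7l3b* (0.95) and *Tppp3* (0.95), to *Hsp90aa1* *Oat* (0.97) and *Mdh1* (0.95), and to *Hsp90ab1* *Vamp4* (0.91) and *Uqcrc1* (0.89). For *Hspa8* they were *Gm26825* (0.94), with which it shares sequence, and *Mrpl40* (0.91), for *Hspe1* the chaperonin subunit *Cct8* (0.87) and *Sdf2* (0.86), for *Dnajb1* *Gm11027* (0.95) and *Tbc1d15* (0.90), and for *Hsf1* *Zfp948* (0.91) and *Ctu1* (0.90).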

How the data were processed

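Libraries were made with poly(A)-primed SMART-Seq v4 cDNA and sequenced as paired ends. For these files the authors used Trim Galore for trimming, Salmon with the GRCm38 annotation for transcript levels and tximport for gene levels; versions are not given in the sources used here. The deposited values are TPM, which sum to the same total in each library, so the depth of each library is unknown and no counting interval is given; per the labels, 12 libraries shared a lane and 28M reads were sequenced, without saying whether per library. Symbols were found for 48350 of 48623 identifiers. Values were transformed to log2(TPM + 1), and 11204 genes with a mean above 1.5 were fitted with limma 3.58.1 in R 4.3.3 (eBayes with a variance trend; genotype, IL-4 and interaction; Benjamini-Hochberg over all genes, threshold 0.05). Genotype and IL-4 were tested by F-tests that include the interaction. The study tested counts by a likelihood-ratio test with a count minimum, and used a mean of 1.5 on log2 TPM without the added 1 to define expressed genes, so the filter here is not identical to either.

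Libraries were paired by the culture name in their titles. Deviations from group means correlated at 0.08 to 0.38 within a culture. In the alternative called the replicate block, culture entered as a random block (correlation 0.198) for the genotype comparisons. For IL-4 and the interaction it entered as a fixed effect, which compares the libraries within a culture. The fit without the block treats the 12 libraries as separate samples although they came from 6 cultures, so that only the blocked fit takes the culture into account. Members, gene lists and tests were chosen with earlier results of these data known. Besides the members, genes were named when called in a list, when largest in a list, or when most alike to a member; *Hspb6*, *Myc* and single cell type markers were named after their values were seen. Shared sequence was counted as 31-base words of GENCODE M21 transcripts. Alternatives were another pseudocount (0.1), no filter or a filter at 3, quantile and median-ratio scaling, no variance trend, 1-coefficient tests, summed near-copies and leaving out each culture.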

Additional observations from a re-analysis of the deposited data

How the results depend on the processing

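The single member called for genotype, *Hspb1*, was no longer called (0 members) with a pseudocount of 0.1, without the filter, with quantile normalization, without the variance trend, with culture as a replicate block, and with *Hsp25-ps1* added, the last chosen after seeing the data. Leaving out 1 culture gave 0 to 1 members. In untreated cultures the count was also 0 under these settings other than the replicate block, which kept it at 1, and 0 to 1 when leaving out 1 culture. All counts stayed the same with a filter at 3, median-ratio scaling, the summed *Hspa1a* and *Hspa1b* and, for genotype, 1-coefficient tests. The counts of 0 members for IL-4, the interaction and KI against WT after IL-4 did not change under any alternative. Across all genes, the number called for genotype was 185, compared with 16 without the filter, 26 without the variance trend, 77 with the replicate block, 575 with 1-coefficient tests and 3 to 191 when leaving out a culture. For untreated cultures it was 102, compared with 5 without the filter, 15 without the trend and 4 to 142 leaving out a culture, and for IL-4 it was 100, compared with 61, 50 and 46 to 143, and 240 with the replicate block. After IL-4 it was 2, compared with 12 without the filter, 0 without the trend and 0 to 10 leaving out a culture, and for the interaction it was 0, compared with 4 without the filter. The replicate block changed no other call of a member. The causes were not tested.

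Directions turned for small differences only, none of them called. The genotype difference of *Hsp90ab1* was -0.0624 with median-ratio scaling and -0.0916 to 0.24 leaving out 1 culture, and that of *Hsf1* -0.36 to 0.0095. For IL-4, *Hspa1b* was at 0.54 with a pseudocount of 0.1 and *Hsp90aa1* at -0.0794 with quantile normalization and -0.0435 with median-ratio scaling. Leaving out 1 culture gave IL-4 differences of -0.46 to 0.34 for *Hspa1b*, -0.0590 to 0.0211 for *Hspa8*, -0.11 to 0.0840 for *Hsp90aa1*, -0.13 to 0.0036 for *Dnajb1* and -0.0686 to 0.50 for *Hsf1*. In untreated cultures the same gave -0.0272 to 0.91 for *Hsph1*, -0.0610 to 0.34 for *Hsp90ab1* and -0.16 to 0.12 for *Hsf1*.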
